A study of Mus musculus with 19 samples.

Results

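The comparison of S-adenosylmethionine (SAMe) with placebo inside Mat1a knockout (KO) liver comprises 230 CpG sites, every line of the authors' deposited table for these groups. They are 230 of 12334 lines in 3 deposited tables, which together cover 8525 distinct sites. Mouse liver DNA was cut with the enzymes MspI and TaqαI, and the fragments were bisulfite sequenced (RRBS), which tells methylated from unmethylated cytosines. The placebo group held 6 MAT1A KO mice and the SAMe group 5 MAT1A KO mice with SAMe supplementation, all aged 10 months and all carrying the knockout, with treatment for 8 weeks by the series title. The 8 MAT1A WT mice of the other tables, also aged 10 months, had no treatment rather than placebo. Strain, sex, dose, route and the form of the Mat1a deletion are not given in the sources used here.

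Mat1a encodes the methionine adenosyltransferase of adult hepatocytes, which joins methionine and ATP into SAMe. DNA methyltransferases take the methyl group from SAMe to methylate cytosine, and the TET enzymes oxidise it on the way to removal. In liver SAMe also feeds the methylation of phospholipids, guanidinoacetate and glycine, and mice without Mat1a are known for low hepatic SAMe, fatty liver and liver tumours.

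The tables give a group difference, a p-value and a q-value per site, and no level, coverage or value for any animal. The depth is therefore unknown, no spread between animals can be set beside a difference, and the liver label could not be checked against marker genes. A q-value below is the authors' own, and whether the spread between animals entered it is not given in the sources used here. Differences were read as SAMe minus placebo, the usual order of the methylKit software. The tables do not state that order, and if it is the opposite every direction turns round together. A mixed tissue was sequenced, so a change in the share of a cell type and a change within cells cannot be told apart.

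Sequence was at hand for 300-base windows around annotated gene starts (RefSeq, GRCm38.p6), 250 bases before to 50 after the start. Of the 230 sites, 2 lay in such a window. They are printed because they are the sites of this comparison closest to a start that has such a window. The listed CpG is in capitals and the rest in lower case, 5′ to 3′ on the strand of the gene.
Gm42064, chr19:5307054-5307353, minus strand: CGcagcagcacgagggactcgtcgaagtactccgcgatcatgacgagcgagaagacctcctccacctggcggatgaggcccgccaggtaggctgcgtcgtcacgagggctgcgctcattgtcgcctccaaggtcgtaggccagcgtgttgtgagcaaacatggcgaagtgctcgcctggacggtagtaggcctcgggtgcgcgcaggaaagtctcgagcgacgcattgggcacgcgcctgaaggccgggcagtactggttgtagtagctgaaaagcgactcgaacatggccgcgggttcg
Gm32539, chr7:141924053-141924352, plus strand: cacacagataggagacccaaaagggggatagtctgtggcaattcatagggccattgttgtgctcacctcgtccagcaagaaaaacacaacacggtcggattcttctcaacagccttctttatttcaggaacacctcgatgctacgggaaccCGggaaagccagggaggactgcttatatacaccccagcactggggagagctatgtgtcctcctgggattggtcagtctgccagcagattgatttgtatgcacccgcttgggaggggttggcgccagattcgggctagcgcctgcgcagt

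The first window belongs to the non-coding RNA gene Gm42064 and also lies inside Gal3st3, a galactose sulfotransferase gene. Its listed CpG, 249 bases before the start, was higher with SAMe by 23.9 percentage points in the authors' deposited table (q = 1.74e-06). The window holds 34 CpGs, a number reached by 7.73% of the 32851 windows. The second window belongs to the non-coding RNA gene Gm32539, and its CpG, 99 bases before the start, was lower with SAMe by −20.8 in the authors' deposited table (q = 0.0475). This window holds 11 CpGs, a number reached by 41.4% of windows. Its listed CpG is the one inside the MspI motif CCGG, which occurs in 52.8% of windows on either strand. The nearest TaqαI motif TCGA, found in 22.0% of windows, begins 17 bases from it, and 21 bases from the listed CpG of Gm42064.

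SAMe was accompanied by higher methylation at 161 of the 230 sites (70%) and lower methylation at 69 (30%) in the authors' deposited table. The largest gain was 45.7 percentage points, outside coding genes on chromosome 14 (position 118103181, mm10). Cars2, the mitochondrial cysteinyl-tRNA synthetase gene, had the largest loss, −38.5 in the authors' deposited table. Most sites stood close to the limit for listing. The median absolute difference was 21.9 with quartiles of 20.7 and 23.6, and the smallest was 20.01, just inside the limit of 20 that all lines of the authors' deposited table pass. An absolute difference of at least 25 was reached at 39 sites, 32 higher and 7 lower, and of at least 30 at 10 sites, 9 higher and 1 lower. The largest q-value was 0.0495 and the median 0.000731, and 8 sites had a q-value listed as 0.

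**Figure D1:**
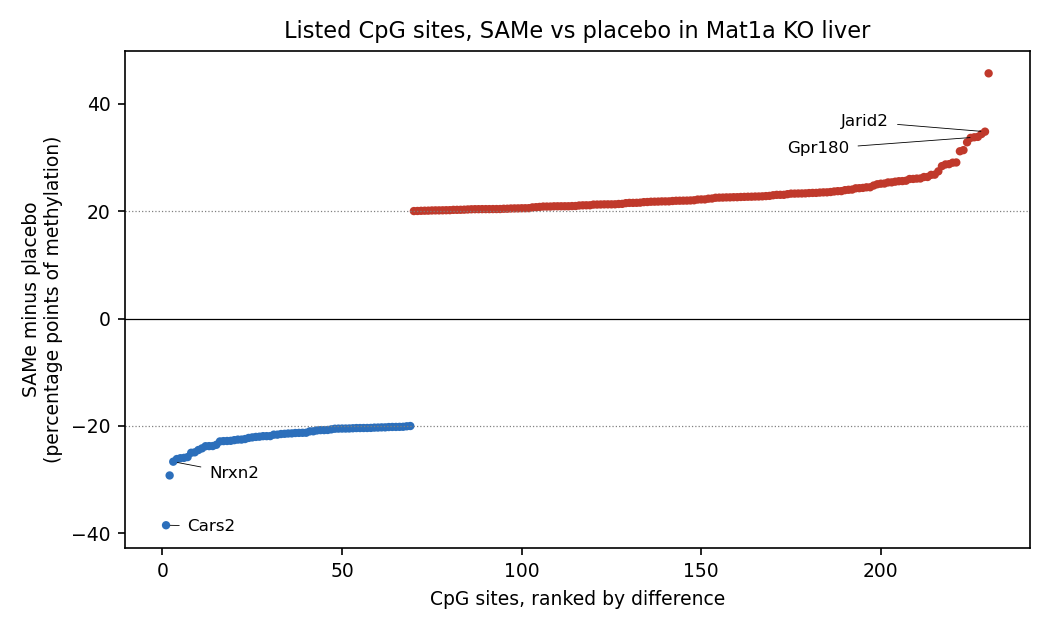
Each of the 230 listed sites as a point, ranked by SAMe minus placebo difference in percentage points of methylation; red points are higher and blue points lower with SAMe, and dotted lines mark 20 and −20. The 161 higher and 69 lower sites hug the limits, and few stand apart, among them the Jarid2 sites near 34 and the Cars2 site at −38.5.

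These sites differed in several ways from the lines of the tables against WT, given here as a description since the 3 tables share animals. Inside coding genes lay 130 of 230 sites (56.5%), against 69.2% in KO placebo vs WT and 71.1% in KO SAMe vs WT. Lower sites made up 30%, against 99.4% and 99.0%. A difference of at least 40 was reached at 1 site (0.435%), against 9.27% and 10.8%. Sites with no other listed site within 1 kb made up 86.5%, against 50.7% and 48.3%. The lines do not reach the same q-value, since the largest was 0.0495 here, against 0.0061 and 0.0178.

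At least 1 site lay in or within 2 kb of 144 of 21887 protein-coding genes in the RefSeq table, 0.658%, which is the background for every gene group below. A higher site was found for 84 genes (0.384%) and a lower one for 60 genes (0.274%), and for 0 genes in both directions. One site on chromosome 18 (position 37763307) lies in 20 overlapping gene models of the protocadherin gamma cluster, adhesion proteins that share exons. Its difference was −20.4 in the authors' deposited table (q = 0.00233). All 20 are among the 60 genes with a lower site, and the shares above count them separately. Counted as 1 gene, that cluster leaves 125 genes in place of 144. A gene without a listed site was below the thresholds or not covered.

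Jarid2, a cofactor that guides Polycomb repressive complex 2 to its targets, had the most listed sites of any coding gene, and the largest single gain inside a coding gene was one of them. Its 5 sites lay within 23 bases inside the gene on chromosome 13 (44869632 to 44869654, mm10). In the authors' deposited table they were higher with SAMe by 32.8, 34.4, 34.8, 33.8 and 33.6 percentage points. All 5 exceeded every other gain inside a coding gene except that of Gpr180, which lay among them. The same sites were lower in KO placebo than in WT by −25.9, −24.1, −26.8, −23.9 and −24.8, in that order, in the authors' deposited table. By addition the SAMe group stood above WT by 6.97 to 10.2 percentage points. Neighbouring sites share reads and animals, so these 5 are not independent measurements.

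Histone regulators other than Jarid2 had single sites. Phf2, a histone demethylase gene, was higher by 23.0 in the authors' deposited table, and the transcriptional regulator gene Prdm16, a methyltransferase family member, by 20.4. Sirt7, a nuclear deacetylase gene, was lower by −21.9 in the authors' deposited table. Among 48 genes of the Polycomb and histone methylation list, Jarid2 was the 1 with a listed site, and 3 of 287 genes of the chromatin regulator families had one (1.05%, against 0.658%).

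Of 212 regions made by joining sites within 1 kb, 13 held 2 or more sites and 199 held 1. In 12 of the 13 every site had the same sign, 8 higher and 4 lower. The exception was a pair spanning 867 bases outside coding genes on chromosome 17, with −22.2 and 22.8 in the authors' deposited table (positions 39843190 and 39844056).

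**Figure D2:**
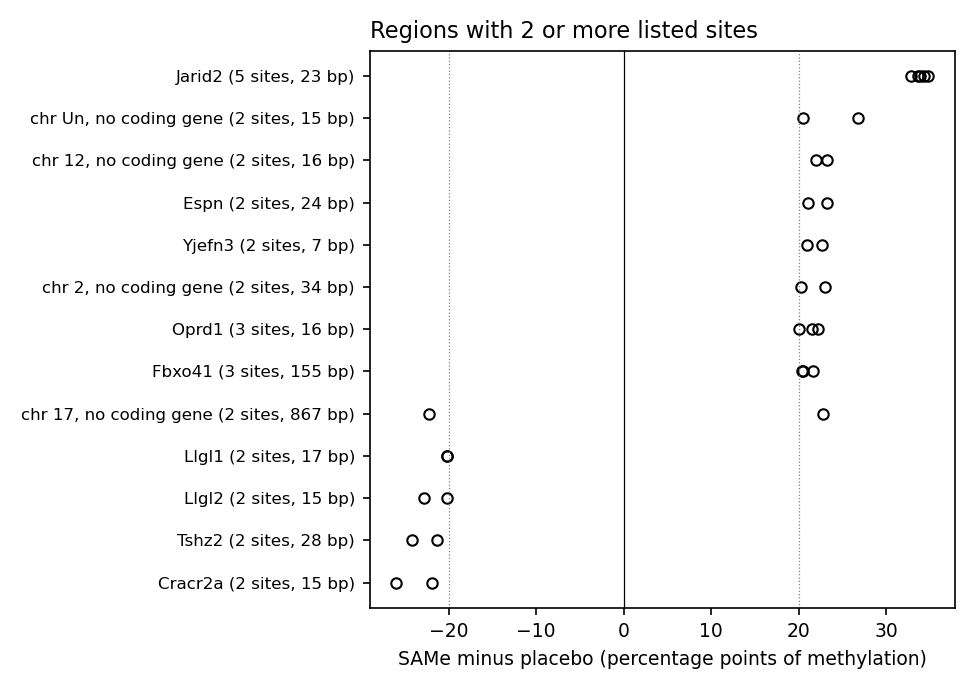
Each row is a region with 2 or more listed sites, each circle a site, and the x axis the SAMe minus placebo difference in percentage points of methylation, with dotted lines at 20 and −20. The 5 Jarid2 circles lie farther from 0 than all other regions, from 32.8 to 34.8, and only the chromosome 17 region has circles on both sides.

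Oprd1, which encodes the delta opioid receptor, had 3 sites within 16 bases on chromosome 4 (132113904 to 132113919), higher by 20.02, 22.2 and 21.6 in the authors' deposited table. Fbxo41, an F-box gene best known from neurons, had 3 sites within 155 bases on chromosome 6, higher by 20.4, 21.7 and 20.5 in the authors' deposited table. None of these 6 sites was listed against WT. Espn, the actin-bundling protein of microvilli and stereocilia, had 2 sites 642 and 665 bases before one of its annotated starts, higher by 21.1 and 23.3 in the authors' deposited table. Yjefn3 had 2 higher sites (22.6 and 20.9 in the authors' deposited table).

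Llgl1 and Llgl2, the mouse homologues of the fly tumour suppressor lethal giant larvae, which set apical and basal polarity in epithelial cells, each had a pair of lower sites. Both lie on chromosome 11, far apart. The Llgl1 sites (60710176 and 60710192) were lower by −20.2 and −20.2 in the authors' deposited table, and the Llgl2 sites (115850755 and 115850769) by −22.8 and −20.2. All 4 were also listed as lower in KO SAMe than in WT, by −39.1 and −42.1 for Llgl1 and by −26.2 and −27.6 for Llgl2 in the authors' deposited table. For KO placebo against WT the authors' deposited table lists the second Llgl1 site alone, at −22.0. The other 3 stood at −19.0, −3.42 and −7.39 by addition.

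Cracr2a, a calcium-binding regulator of store-operated calcium entry, had 2 lower sites 14 bases apart, −21.9 and −26.0 in the authors' deposited table, neither listed against WT. Tshz2, a teashirt zinc finger gene, had 2 lower sites, −21.3 and −24.2 in the authors' deposited table. Both Tshz2 sites were higher in KO placebo than in WT, by 20.3 and 23.3 in the authors' deposited table, and by addition the SAMe group stood at −0.995 and −0.844 from WT.

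In the families of G protein-coupled receptors and G proteins, 5 of 259 genes had a site (1.93%, against 0.658% for all coding genes), all higher. They were Gpr180 (33.8 in the authors' deposited table), the adhesion receptor gene Adgrb2 (23.7), Oprd1, the alpha-1A adrenergic receptor gene Adra1a (20.4) and Gnas, the imprinted stimulatory G protein gene (20.1). Membership is by gene symbol. Gpr180 and Adra1a both lie on chromosome 14, where 15 of 16 listed sites were higher. Across all listed sites 161 of 230 were higher. In the ion channel and pump families 5 of 350 genes had a site (1.43%), 4 higher and 1 lower. The higher ones were Cngb1, a cyclic nucleotide-gated channel subunit (31.2 in the authors' deposited table), the glutamate receptor genes Grin2a (25.1) and Gria1 (23.0), and the ATP-gated channel gene P2rx5 (23.2). The lower one was Cracr2a, a regulator of calcium entry rather than a channel, which is counted by its symbol. Gabbr2, a GABA receptor subunit outside these name families, was higher by 22.7 in the authors' deposited table, and so was Bdkrb1, a bradykinin receptor, by 20.5. Gene length and coverage were not matched in these shares.

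The families of small GTPases and their regulators, drawn by gene symbol, had sites in 4 of 367 genes (1.09%), all higher. Ehd2, a membrane ATPase of caveolae that is counted here by its symbol alone, stood at 28.7 in the authors' deposited table. Arl15, an ARF-like GTPase, stood at 26.8, Rhobtb2, an atypical GTPase, at 22.4 and Tbc1d30, a Rab GTPase activator, at 20.4 in the authors' deposited table. Cytoskeleton and motor families had sites in 4 of 311 genes, with the kinesin gene Kif6 (23.6), the myosin gene Myo1c (22.0) and the dynein chain gene Dync1li1 (20.9) higher and Kif26b (−20.5) lower in the authors' deposited table.

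Transcription factor families had sites in 7 of 842 genes (0.831%), near the background. Meis2, a homeobox gene, was higher by 24.3, Zbtb12 by 23.5, Irf2bp1 by 23.4 and the nuclear receptor gene Rora by 21.8 in the authors' deposited table. Gata4, which acts in hepatocyte and endothelial development, was lower by −20.5, with a q-value of 0.0453.

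On the list of 65 receptor tyrosine kinase and MAP kinase signalling genes, Spry4 and the GTPase gene Rhobtb2 had a site (3.08%, against 0.658%), 1 in each direction. That list was written with earlier results of these data known. Dusp3 and Prkce belong to the phosphatase and protein kinase families counted further below. The remaining signalling genes of this paragraph belong to no list or family and were named after their values were seen, so their directions carry no count. Spry4, an inhibitor of receptor tyrosine kinase signalling, was lower by −24.9 and the phosphatase gene Dusp3, which acts on MAP kinases, by −22.8 in the authors' deposited table. Grb7, an adaptor of receptor kinases, shared a site with Mien1 (−21.3 in the authors' deposited table). Prkce, a protein kinase C, stood at −21.3, and Lrp5, a Wnt co-receptor, at −21.9 in the authors' deposited table. In the other direction Ryk, also a Wnt receptor, was higher by 21.3 at a site 1198 bases before its start, the collagen receptor kinase gene Ddr1 by 20.2 and Fgf14, a fibroblast growth factor homologue that acts on sodium channels, by 20.2 in the authors' deposited table.

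Adhesion molecules of the nervous system were among the larger losses. Nrxn2, a presynaptic neurexin, was lower by −26.6, and Cntn2, an axonal contactin, by −25.8 in the authors' deposited table, while Plxnd1, a semaphorin receptor of vessels, was higher by 20.1. The adhesion and axon guidance families had sites in 20 of 258 genes, but 17 of these are protocadherin gamma genes that share 1 site. Sdc4, a cell surface heparan sulfate proteoglycan, was lower by −22.1 in the authors' deposited table. Hs3st2, which modifies heparan sulfate, was lower by −20.6 at a site 883 bases after its start. Of matrix and protease genes 3 of 349 had a site, Mmp23 (21.8) and Col27a1 (20.8) higher and Adamts17 (−22.8) lower in the authors' deposited table.

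The mitochondrial and synthetase families had a site in 2 of 247 genes (0.810%), near the background of 0.658%. These were Cars2 and the complex I subunit gene Ndufb9, which stood at −20.1 in the authors' deposited table. Mitochondrial genes outside the families were found in both directions and were named after their values were seen. Nubpl, which assembles iron-sulfur clusters of complex I, was lower by −20.4, and Gpt2, the mitochondrial alanine aminotransferase, by −22.0 in the authors' deposited table. Clybl, a mitochondrial citrate lyase-like gene, was higher by 22.6, and Mthfd2l, a mitochondrial folate enzyme gene, by 21.9 in the authors' deposited table. Among transporter genes Slc5a10 (25.1, a site shared with Fam83g) was higher and the amino acid transporter gene Slc36a2 (−22.4) and Abcb10 (−20.3) were lower in the authors' deposited table. Protein kinase families, drawn by gene symbol, had a site in 2 of 256 genes and phosphatase and phosphoinositide families in 2 of 227, each with 1 in each direction. The kinase genes were Prkce and Stk19, the latter by a site 467 bases outside the gene. Other kinase genes with a site, such as Cit and Ddr1, are not in these name families.

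None of 35 genes of the methionine and one-carbon list had a listed site, nor any of 17 genes of the DNA methylation machinery. Lipid metabolism (46 genes), liver tumour and growth control (43), stellate cell and fibrosis markers (27) and endothelial markers (15) also had 0. At 0.658% a list of this size would hold less than 1 such gene, so a count of 0 carries little information. The lists are also not complete. Mthfd2l, a folate enzyme gene with a higher site (21.9 in the authors' deposited table), is not on the methionine and one-carbon list. Selenoi, a phospholipid synthesis gene described below, is not on the lipid list. The circadian clock list had Rora among 20 genes, the imprinted list Gnas among 35, and immune markers Cd79b, a B-cell receptor subunit (21.8 in the authors' deposited table), among 33.

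Of the 230 sites, 128 (55.7%) were listed in neither table against WT, matched on chromosome, start and strand. At 95 of them methylation was higher and at 33 lower with SAMe. Their median absolute difference was 21.7, against 22.7 for the 55 sites also listed in KO placebo vs WT alone, 21.9 for the 21 in KO SAMe vs WT alone and 22.0 for the 26 in both. The share inside coding genes was 54.7%, 60.0%, 52.4% and 61.5% in that order. A listing against WT fixes much of the direction, because the tables share the placebo or the SAMe animals. For the sites in neither table no WT value is listed, so nothing can be said of their place relative to WT.

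**Figure D3:**
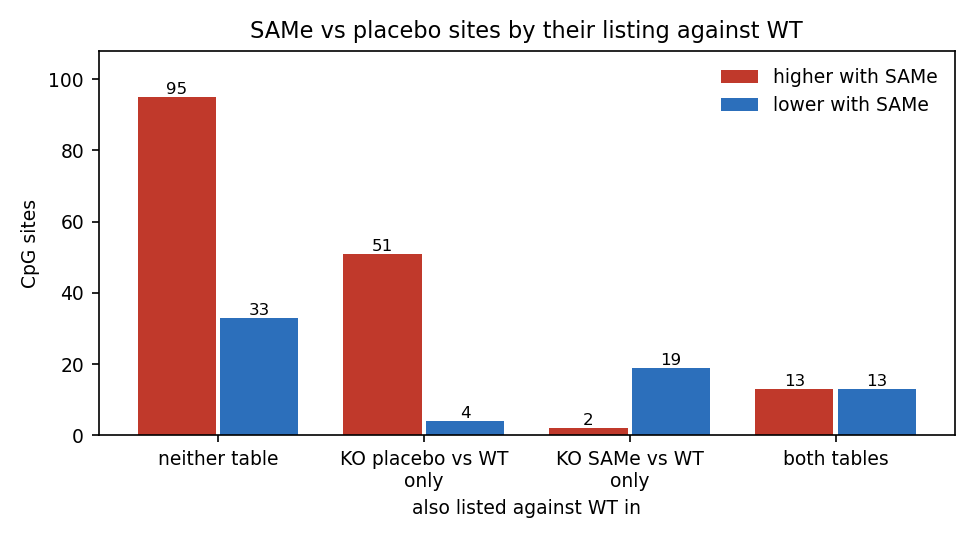
Bars count CpG sites higher (red) and lower (blue) with SAMe, grouped by whether the site was also listed in neither, one or both of the tables against WT. The group in neither table is the largest, with 95 higher and 33 lower sites, and the 26 sites in both tables split 13 to 13.

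Shisal1, a member of the shisa family of membrane proteins, had the largest gain among sites in neither table, 31.4 in the authors' deposited table, followed by Cngb1. Arl15, the calcineurin regulator gene Rcan2 (26.1), Gmnc, a regulator of multiciliated cell formation (25.6), Fam83g with Slc5a10 (25.1) and the deubiquitinase gene Usp13 (24.0) came next among genes other than predicted ones in the authors' deposited table. The lower sites in neither table were led by one outside coding genes on chromosome 1 (position 153642263, −29.2 in the authors' deposited table). In or near coding genes, Cracr2a was the lowest, followed by the Golgi kinase family gene Gask1b (−25.0), Dusp3, the citron kinase gene Cit (−22.6), Sdc4, the reductase gene Dhrs11 (−22.0) and Sirt7 in the authors' deposited table. Dppa3, an oocyte protein that protects DNA methylation after fertilisation, was higher by 22.5 (q = 0.0133).

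At the 55 sites listed against WT for KO placebo alone, the placebo group was below WT at 51 and above at 4. By addition the SAMe group lay between −14.7 and 10.2 percentage points from WT, with a median of −0.844, and within 5 points at 40 sites. The listing itself confines these values, since a SAMe difference beyond 20 would also be listed if its q-value passed. Ehd2 stood at −22.9 in KO placebo in the authors' deposited table and at 5.88 under SAMe by addition. For Meis2 the values were −26.4 and −2.13, for Grin2a −21.3 and 3.82, for Rora −25.1 and −3.33 and for Phf2 −20.02 and 2.94. The 4 sites above WT in placebo and lower with SAMe were the 2 in Tshz2, the one in Hs3st2 (20.3 in the authors' deposited table) and the chromosome 17 site at 39843190 (29.0).

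At the 21 sites listed against WT for KO SAMe alone, the SAMe group was below WT at 19 and above at 2. The placebo group lay between −19.4 and 2.12 by addition, with a median of −6.96, and within 5 points at 10 sites. Nrxn2 was at −24.8 under SAMe in the authors' deposited table and at 1.84 under placebo by addition. For Cntn2 the values were −25.9 and −0.11, for Grb7 with Mien1 −21.4 and −0.13, for Spry4 −35.1 and −10.2 and for Lrp5 −33.1 and −11.2. The 2 sites above WT under SAMe were one within 2 kb of Stk19 (25.4 in the authors' deposited table) and one outside coding genes on chromosome 9 (21.3).

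All 26 sites listed in both tables were below WT in both KO groups. KO placebo ranged from −93.3 to −20.1 and KO SAMe from −79.6 to −21.9 in the authors' deposited table. A site can be higher with SAMe and still be listed as below WT only if placebo lies below −40, so the depth of the placebo loss and the direction are tied by the listing. Gpr180 went from −68.5 in placebo to −34.7 under SAMe, Enpp5 from −72.1 to −45.8, Nav2 from −64.9 to −44.0 and Clybl from −53.8 to −31.2 in the authors' deposited table. The opposite order was listed for Cars2, −23.6 in placebo and −62.1 under SAMe, for Adamts17, −44.9 and −67.7, for Tm2d3, −37.5 and −61.3, for the chaperone cofactor gene Bag3, −26.3 and −47.8, and for Gpt2, −29.0 and −51.0. At Gpr180 and Cars2 the SAMe group thus stood nearer to WT in one case and farther in the other by over 30 points.

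**Figure D4:**
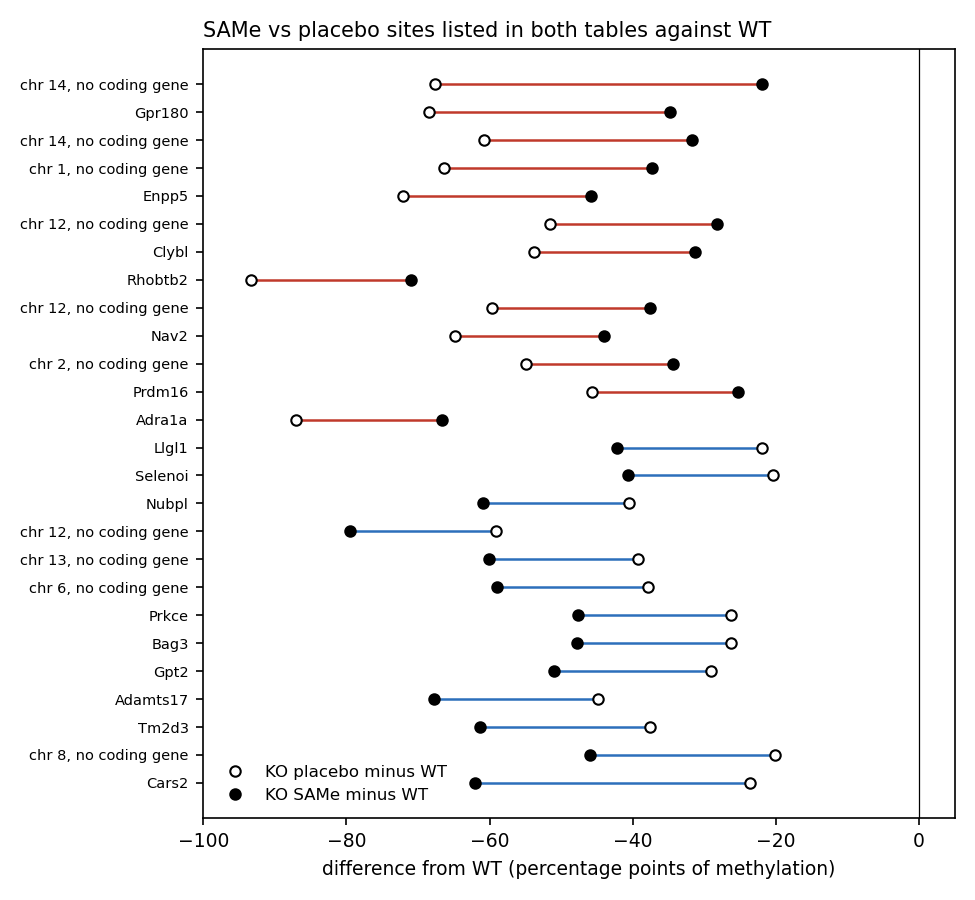
Each row is 1 of the 26 sites listed in both tables against WT, with open circles for KO placebo minus WT and filled circles for KO SAMe minus WT in percentage points of methylation; red lines are higher and blue lines lower with SAMe. All circles lie left of WT at 0, and in the 13 red rows the filled circle is nearer to it.

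A methylation level lies between 0 and 100%, so a large difference bounds the levels behind it. These bounds rest on the reading of the subtraction order given above; under the opposite order each level L becomes 100 minus L. At the Rhobtb2 site (chromosome 14, position 69796671) the WT level was at least 93.3%, the placebo level at most 6.69% and the SAMe level between 22.4 and 29.0%. For Adra1a (position 66689596) the bounds were at least 87.0% in WT, at most 13.0% in placebo and 20.4 to 33.4% under SAMe. Enpp5 on chromosome 17 had at most 27.9% in placebo and 26.4 to 54.2% under SAMe, and Gpr180 at most 31.5% and 33.8 to 65.3%. Cars2 had 38.5 to 76.4% in placebo and at most 37.9% under SAMe, with WT at 62.1% or more. At a site outside coding genes on chromosome 12 (position 33655813) WT was at least 79.6%, placebo 20.5 to 40.9% and SAMe at most 20.4%. At each of these 6 sites the highest SAMe level allowed lay below the lowest WT level allowed. All these levels are as read by bisulfite sequencing. The DNA sequence of the animals was not at hand, so a sequence difference between the groups at these sites was not tested.

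Listed sites were found on every autosome and on chromosome X. Chromosome 14, which carries Mat1a, had 15 higher and 1 lower site, the lower one in Gata4, and holds the largest gain and those of Gpr180, Adra1a and Rhobtb2. Mostly higher sites were also found elsewhere, among others on chromosomes 4 (12 higher and 2 lower), 9 (11 and 2) and 13 (10 and 2). Chromosome 11 had 12 higher and 11 lower sites, chromosome 8 had 7 of each, and chromosome 19 had 3 higher and 5 lower. The chromosome 8 sites were not mixed along its length. All listed sites from position 3996751 to 12082498, Cars2 among them, were lower, and the first higher one lay at 30735018. On chromosome X there were 3 higher sites and 0 lower. The pair 15 bases apart on chromosome 12 (111436725 and 111436740), outside coding genes, was higher by 23.3 and 22.0 in the authors' deposited table.

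**Figure D5:**
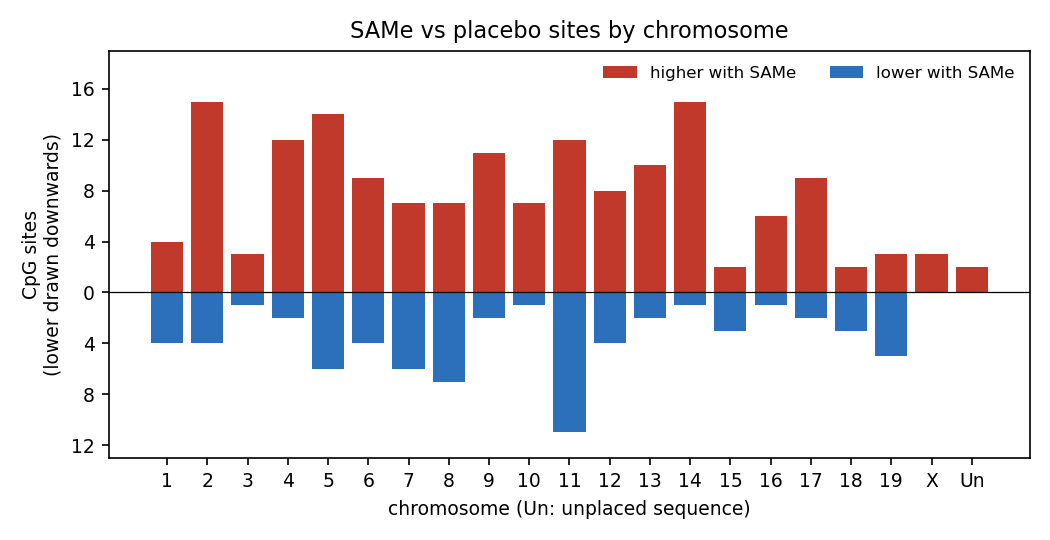
Bars count listed CpG sites per chromosome, higher with SAMe drawn upwards in red and lower drawn downwards in blue; Un is 1 unplaced sequence. Chromosome 14 has 15 higher and 1 lower site and chromosome 4 has 12 and 2, while chromosome 11 has 12 and 11.

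Few sites lay near the gene starts at hand, which cover 17492 of 21887 coding genes. Within 1 kb of any start in the RefSeq promoter table lay 11 of 230 sites, 8 higher and 3 lower, and within 5 kb 44 sites (19.1%), 33 higher and 11 lower. At 43 sites the nearest start was over 100 kb away. For 7 sites, on chromosome 18 or an unplaced sequence, no start was used here. Coding genes with a site within 1 kb of their own start in that table were Syde1 (457 bases before, 21.3 in the authors' deposited table), Fam83g (591 after, 25.1), Mmp23 (946 after, 21.8), Espn and Hs3st2.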

How the data were processed

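Livers of 19 mice in 3 groups were measured by bisulfite sequencing. Per the submitters' processing notes the tools were CASAVA 1.8.2, Trim Galore, Bismark and methylKit with mm10; settings are not given. The deposited tables hold the authors' p-value and q-value per CpG site and the difference in percentage points, for groups rather than animals; coverage and depth per sample are unknown. Sites were annotated with Python 3.11.15 and pandas 2.3.3: a gene was assigned within 2 kb, and sites within 1 kb were joined. RefSeq GRCm38.p6 shares its primary coordinates with mm10, and all 145 listed sites of the 3 tables inside promoter windows read CG. The gene table has no strand or exons. At 26 sites in all tables the differences added up within 1e-07 percentage points, so a missing difference was obtained by addition. No test was run, because the tables hold no animals. Assignment and joining were tested on simulated data. Named genes are those with 2 or more sites, the 20 largest gains and losses, the 10 largest of each among sites in neither table, all in both tables, members of the 13 lists and 12 symbol families, and the 3 largest sites of each direction outside genes; not every one is described, and some genes and the lists that need them are not reported here. Other genes were added after their values were seen. Members and lists were chosen with earlier results of these data known.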

Additional observations from a re-analysis of the deposited data

How the results depend on the processing

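The counts of 161 higher and 69 lower sites became 32 and 7 at an absolute difference of at least 25 percentage points, 9 and 1 at 30, and 90 and 32 at a q-value of at most 0.001. Genes with a site became 17 at 25. These stricter limits keep fewer lines by construction. At a q-value of at most 0.01, with both strands of a CpG joined, and with regions in place of sites, the counts stayed within 1.5 times (135 and 50, 161 and 69, 148 and 64). The region counts place the chromosome 17 region of mixed sign among the higher ones, with a mean difference of 0.291. Other gene windows gave 137 genes (gene body only) and 174 (5 kb), and counting the protocadherin gamma site once, chosen after seeing the data, gave 125. Joining within 100 bases or 5 kb gave 214 and 212 regions. The 128 sites in neither table against WT became 111 when any listed WT site within 1 kb counted as a match. No paired analysis was possible because the tables hold no values per animal and the animal codes are not replicate numbers, and for the same reason no animal could be left out. Unknown coverage limits every value.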

Other observations

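Selenoi, which makes phosphatidylethanolamine from CDP-ethanolamine, had 1 site lower with SAMe by −20.3 percentage points in the authors' deposited table. It was below WT by −20.4 in placebo and −40.7 under SAMe in the authors' deposited table. The Sirt7 site at −21.9 also lies within 2 kb of Pcyt2, 780 bases outside that gene.

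At 2 sites the SAMe group equalled WT within 0.001 percentage points by addition, 1 in the vomeronasal receptor gene Vmn2r11, with −24.4 in placebo, and 1 outside coding genes on chromosome 14 (position 29798943), with −26.0 in placebo in the authors' deposited table. Vmn2r11 belongs to a large family of similar genes. The unplaced sequence GL456359 had 2 sites 14 bases apart, higher with SAMe by 20.5 and 26.8 in the authors' deposited table, and its gene content was not examined.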
